A study of Homo sapiens with 6 samples.

Results

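The 10 genes described here encode the ligands TGFB1, TGFB2 and TGFB3, the receptors TGFBR1, TGFBR2 and TGFBR3, and the signal carriers SMAD2, SMAD3, SMAD4 and SMAD7 of the transforming growth factor beta (TGF-beta) pathway. They were taken by gene symbol from the 56303 genes of the count table, by a rule that names their symbols and no value. RNA was sequenced from 786-O cells, a human clear cell renal cell carcinoma line that lacks functional VHL, after transfection with small interfering RNA (siRNA). The control group held 3 libraries, labelled siControl, WT and 0 h, and the knockdown group held 3 libraries, labelled siNFE2L3 and 48 h. NFE2L3 is a transcription factor of the cap'n'collar family, and the comparison asks which transcripts differed when it was depleted. All libraries came from the same line, and the knockdown and the labelled time cannot be told apart. In 2 knockdown libraries the genotype label reads NFE2L4 or NFE2L5 in place of NFE2L3, while their titles and source names give siNFE2L3. The siRNA used was not given in the labels, and neither was whether libraries of a group came from separate cultures, so the p-values rest on library-to-library spread that may be purely technical.

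TGF-beta ligands are secreted in a latent form and, once released, bind the type II receptor TGFBR2, a kinase that recruits and phosphorylates the type I receptor TGFBR1. TGFBR1 then phosphorylates SMAD2 and SMAD3, which join SMAD4 and enter the nucleus to regulate transcription. TGFBR3, also called betaglycan, is a co-receptor that presents the ligands, TGFB2 in particular, and SMAD7 is an inhibitor that binds the type I receptor and is itself induced by the pathway. In the kidney, the pathway is known for its part in fibrosis, and in carcinoma cells for growth arrest and for epithelial-mesenchymal transition.

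The libraries held 51828446 to 57391929 counts each. NFE2L3 itself had 6171, 6508 and 6403 counts in the controls against 1087, 1075 and 1068 after knockdown, which was 17.2% of the control level. Of 7 markers of renal tubule or clear cell carcinoma cells, PAX8, a kidney lineage factor, was at 240.5 CPM (counts per 1e+06 counts, after TMM scaling of the library totals) in the control and 216.9 CPM in the knockdown group. All 7 were detected, 4 were lower and 1 was higher after knockdown, and their summed level was 2705 to 2762 CPM in the control and 2414 to 2505 CPM in the knockdown libraries. By the same test, 14.0% of all tested genes were lower and 12.7% higher. Of 12 markers of endothelial, immune, stromal and mural cells, 7 passed the filter on low counts, CDH5 was at 0 in every library, and PTPRC, CD3E, LYZ, PECAM1, VWF, KDR and PDGFRA were each under 0.3 CPM on average. The summed level of these 12 markers was 134.5 to 158 CPM in the control and 130.3 to 134.9 CPM in the knockdown libraries, nearly all of it CD68, a lysosomal protein gene that was lower in the knockdown group (132 against 118 CPM, adjusted p = 0.0136). RGS5, a mural cell marker, was the marker with a higher level (9.10 against 11.97 CPM, adjusted p = 6.44e-04). The stromal markers LUM (2.89 CPM in the control and 2.62 CPM in the knockdown group) and DCN (0.289 and 0.208 CPM) did not pass the test. The part of these markers in the results was not tested, and in such bulk RNA fewer cells of a type and less RNA per cell cannot be told apart.

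All 10 genes passed the filter on low counts. They were tested by the edgeR quasi-likelihood method, with Benjamini-Hochberg adjustment over 19916 genes. After knockdown, TGFBR2 and TGFB2 fell, and none of the 10 rose. These 2 falls stand beside a background of 14.0% of all tested genes called lower at an adjusted p under 0.05, and the 0 rises beside 12.7% called higher. At an unadjusted p under 0.05, 3 were lower (TGFB2, TGFB3 and TGFBR2), beside 19.0% of all tested genes, and 1 was higher (SMAD4), beside 17.7%. DESeq2, the exact test of edgeR and limma-voom also called 0 of the 10 higher. The study's own rule, an unadjusted p under 0.05 with a change of at least 2-fold, called 1.10% of tested genes and 0 of the 10. The median log2 fold change, the base-2 logarithm of the knockdown level over the control level, was -0.08 for the 10 genes and -0.00066 for all tested genes. In 4 of the 10 every knockdown library was below every control library, against 20.4% of all tested genes, and in 1 every knockdown library was above, against 19.1%.

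**Figure D1:**
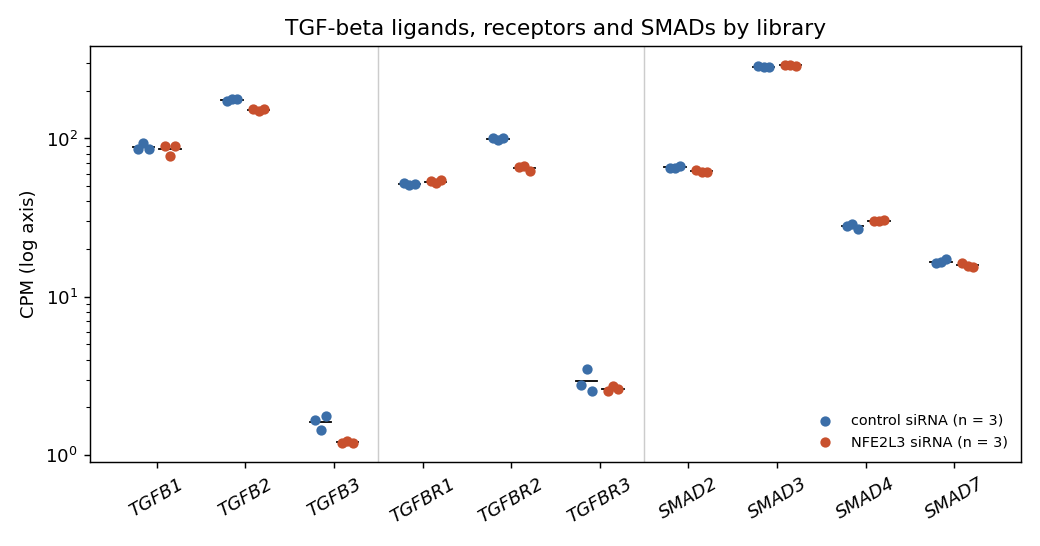
Each point is 1 library, with CPM on a log axis, the 10 genes along the bottom in order of role and short bars at the group means. The 3 TGFBR2 points after NFE2L3 siRNA lie at 62.3 to 67.2 CPM, below the controls at 98.4 to 100.9 CPM, while the SMAD3 points of the groups lie within 281.4 to 291.7 CPM.

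Because the results turn on TGFBR2 and TGFB2, upstream sequence of each gene is shown. Both are on the plus strand, written 5′ to 3′, and come from RefSeq promoters of GRCh38.p14, the build of the count table. The first run is the 151 bases before the first counted exon of TGFBR2 (chr3:30606351-30606501), and the second is the 250 bases before the RefSeq start of TGFB2 (chr1:218345086-218345335), which ends 899 bases before the first counted exon. Capitals mark every match to the motifs listed in the next paragraph.
TGFBR2: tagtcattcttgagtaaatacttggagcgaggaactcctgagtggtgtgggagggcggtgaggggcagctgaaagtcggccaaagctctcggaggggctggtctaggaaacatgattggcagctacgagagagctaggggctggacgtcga
TGFB2: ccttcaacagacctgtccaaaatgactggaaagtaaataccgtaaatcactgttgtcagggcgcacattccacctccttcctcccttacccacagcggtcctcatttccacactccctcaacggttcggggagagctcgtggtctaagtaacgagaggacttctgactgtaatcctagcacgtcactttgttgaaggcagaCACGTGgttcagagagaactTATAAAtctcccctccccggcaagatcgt

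The 250 bases before each of 26 annotated starts of the 10 genes were searched on both strands for 5 motifs, the last 2 of which were added after the sequences had been read. The SMAD palindrome GTCTAGAC was found before 0 of the 26 starts and 0.182% of 35116 starts genome-wide. The core of the antioxidant response element, TGACNNNGC, bound by cap'n'collar factors with small MAF partners, was found before 1 of 26, an alternative SMAD7 start inside the counted gene, and before 10.9% of all. The sequence that the study describes as common to NFE2L3 binding sites was searched as GTCACNCT. Any base was allowed at N, as the study allows there. GTCACNCT was found before 0 of 26 and 2.90% of all. TATAAA, the letters of the TATA box, was found before 3 of 26 starts (TGFB2, TGFB3 and SMAD7) and 10.7% of all. The E-box CACGTG was found before 3 of 26 (TGFB2, TGFB3 and SMAD3) and 6.34% of all. The TATAAA of TGFB3 and SMAD7 and the E-box of SMAD3 lie inside the counted genes. Several of the 26 windows belong to the same gene and some overlap, as in TGFBR1, so they are not separate. In TGFB2 the TATAAA began 29 bases and the E-box 49 bases before the start, and the TGFBR2 run held none of the 5. No match says only that these letters are not in this window. The 29 bases at the SMAD7 match (chr18:48942895-48942923, minus strand), with the match in capitals, and the 26 bases at the TATAAA of TGFB3 (chr14:75982010-75982035, minus strand) are given for comparison with TGFB2.
SMAD7: tgatgagggaTGACAGAGCaaccagggtt
TGFB3: gggagggaggTATAAAatttcagcag

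Among the ligands, TGFB2 was measured at 171.3, 178.5 and 176.7 CPM in the control libraries and at 154.1, 148.9 and 152.5 CPM after knockdown. Every knockdown library was below every control library, and the group means were 175.5 ± 3.75 and 151.8 ± 2.69 CPM (SD, n = 3 each). TGFB2 fell by 0.21 on the log2 scale (SE 0.0392, 95% interval -0.29 to -0.13, adjusted p = 2.34e-04), to 86.5% of the control. The gene lies on chr1:218346235-218444619, plus strand, and TGFB2-OT1, a transcript on the same strand, shares 1371 bases with its exons, 26.6% of the counted length. These 1371 bases are the whole counted length of TGFB2-OT1. TGFB2-OT1 was at 31.9 ± 1.72 CPM in the control and 27.9 ± 0.742 CPM after knockdown (log2 fold change -0.19, adjusted p = 0.00943 by edgeR). Reads in the shared stretch cannot be told apart, so its lower level is not a measurement separate from that of TGFB2. 

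TGFB1, the ligand best known from fibrosis and immune regulation, was at 85.2, 94.0 and 85.2 CPM in the control and 89.3, 77.3 and 89.5 CPM in the knockdown libraries. The groups overlapped, control replicate 2 being the highest of the 6 libraries and knockdown replicate 2 the lowest. Its log2 fold change was -0.05 (95% interval -0.16 to 0.06, adjusted p = 0.579), and its sign changed without either of these libraries (4.5e-04 without control replicate 2, 0.02 without knockdown replicate 2). TGFB1 lies on chr19:41301587-41353911, minus strand. It shares 215 exon bases, 6.6% of its counted length, with HNRNPUL1 on the opposite strand, and HNRNPUL1, an RNA-binding protein gene, fell by 0.43 on the log2 scale (adjusted p = 7.69e-08). The sources used here do not give which strand setting was used to count, so reads of the shared bases may have gone to either gene or to both.

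TGFB3, a ligand known for palate closure, was rare, with 88, 83 and 98 counts in the control and 67, 69 and 61 counts in the knockdown libraries. Scaled to depth, these were 1.66, 1.44 and 1.77 CPM against 1.20, 1.23 and 1.19 CPM, with no overlap between the groups. The log2 fold change of -0.42 had a wide interval (-0.81 to -0.04), and the gene missed the threshold (unadjusted p = 0.0306 and adjusted p = 0.0947 by edgeR). It had 61 to 98 counts a library. TGFB3 lies on chr14:75958099-75982991, minus strand.

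Levels of different genes can be set side by side only per length, as RPKM (CPM per kilobase of exon). In the control libraries TGFB2 was at 34.1 ± 0.728, TGFB1 at 27.2 ± 1.56 and TGFB3 at 0.330 ± 0.0342 RPKM, so that TGFB2 made up 55.3 ± 1.06% of the summed ligand level, TGFB1 44.1 ± 1.13% and TGFB3 0.536 ± 0.0702%. After knockdown the shares were 52.6 ± 1.65%, 47.0 ± 1.68% and 0.438 ± 0.0287%. The order of the first 2 ligands depended on the gene length that was used. With the length of a single reference transcript per gene (MANE Select, an alternative chosen after seeing the data), TGFB1 was at 31.7 ± 1.82 and TGFB2 at 29.9 ± 0.639 RPKM in the control, which did not differ beyond their spread, and the control ratio of TGFB2 to TGFB1 went from 1.25 to 0.945. With the counted lengths the ratio of TGFB2 to TGFB1 was 1.25 ± 0.0557 in the control and 1.12 ± 0.0767 after knockdown. The groups overlapped (exact two-sided permutation p = 0.2). The reference transcript of TGFB2 (5868 bases) is longer than its counted 5151 bases. It thus holds bases where no read was counted, which lowers the RPKM of TGFB2 with that length. For TGFB1 the reference transcript is the shorter, at 2780 against 3238 bases. The order of these 2 ligands was therefore not settled.

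Of the receptors, TGFBR2 had the lowest adjusted p of the 10 genes and the largest change in either direction among them. Its counts were 5303, 5687 and 5604 in the control and 3692, 3778 and 3202 in the knockdown libraries, or 99.97, 98.4 and 100.9 CPM against 66.1, 67.2 and 62.3 CPM. The lowest control library was well above the highest knockdown library, and the spread within a group was small beside the gap (99.8 ± 1.31 and 65.2 ± 2.56 CPM). TGFBR2 fell by 0.61 on the log2 scale (SE 0.0432, 95% interval -0.70 to -0.52, adjusted p = 1.09e-10), to 65.4% of the control. The exact permutation test of this single gene gave p = 0.1, the smallest p that 3 libraries against 3 can give. TGFBR2 lies on chr3:30606502-30694142, plus strand, and no other counted gene shares its exon bases.

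TGFBR1, the type I receptor that TGFBR2 activates, was at 52.5, 50.6 and 51.3 CPM in the control and 53.7, 52.2 and 54.5 CPM in the knockdown libraries. The groups overlapped, and its log2 fold change of 0.06 did not pass the test (95% interval -0.04 to 0.15, adjusted p = 0.399). TGFBR3 was at 2.75, 3.49 and 2.52 CPM against 2.54, 2.72 and 2.61 CPM, with overlap and with control replicate 2 above all others. Its log2 fold change was -0.16, with an interval from -0.45 to 0.14 that allows changes in both directions (adjusted p = 0.464). TGFBR1 lies on chr9:99104038-99154192, plus strand, and TGFBR3 on chr1:91680343-91906335, minus strand.

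Per length, TGFBR2 was the most abundant receptor in both groups, at 21.2 ± 0.277 RPKM in the control and 13.9 ± 0.544 RPKM after knockdown, followed by TGFBR1 at 7.52 ± 0.140 and 7.81 ± 0.169 RPKM and TGFBR3 at 0.336 ± 0.0583 and 0.301 ± 0.0105 RPKM. TGFBR2 made up 73.0 ± 0.3604% of the summed receptor level in the control and 63.1 ± 1.36% after knockdown, and TGFBR1 25.9 ± 0.316% and 35.6 ± 1.36%. Within a library, the ratio of TGFBR1 to TGFBR2 was 0.361, 0.353 and 0.349 in the control and 0.559, 0.534 and 0.601 after knockdown. No knockdown library came near the control range, and the mean ratio went from 0.354 ± 0.00583 to 0.564 ± 0.0339, a log2 difference of 0.67. Its exact two-sided permutation p was 0.1, the smallest possible, and 0.2 after adjustment over the 4 ratios compared.

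**Figure D2:**
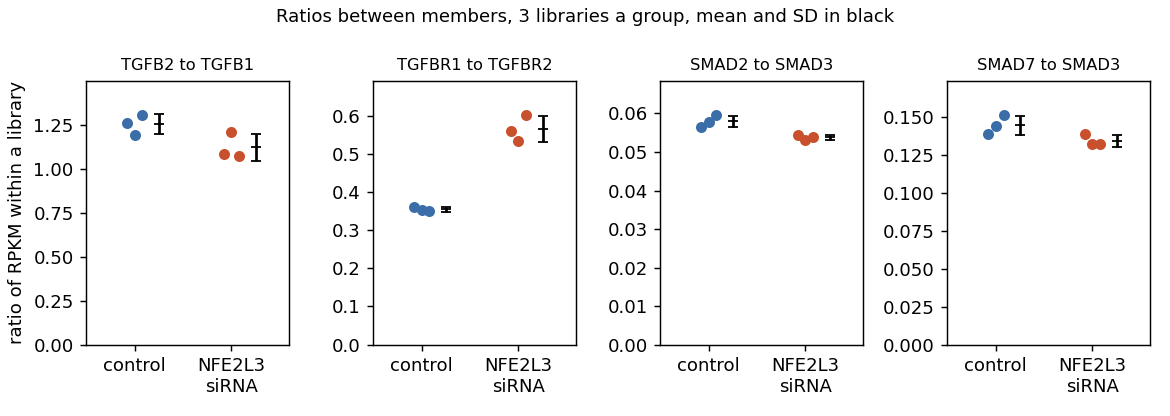
Each panel gives 1 ratio of RPKM values within a library, with a point per library and the mean and SD of each group in black on axes that start at 0. The ratio of TGFBR1 to TGFBR2 lies at 0.349 to 0.361 in the controls and at 0.534 to 0.601 after NFE2L3 siRNA, whereas the TGFB2 to TGFB1 and SMAD7 to SMAD3 points of the groups overlap.

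None of the 4 SMAD transcripts passed the test. SMAD3, a receptor-activated SMAD that binds DNA directly, was the most abundant of the 10 genes in CPM, at 288.6, 283.5 and 281.4 in the control and 290.6, 291.7 and 286.7 in the knockdown libraries. The groups overlapped, and the interval of its log2 fold change ran only from -0.05 to 0.10 around 0.03 (adjusted p = 0.663). SMAD2, the other receptor-activated SMAD of the TGF-beta branch, was at 65.04, 65.5 and 66.8 CPM in the control and 63.1, 61.8 and 61.7 CPM in the knockdown libraries. Every knockdown library was lower, by a small margin, and the log2 fold change of -0.08 (95% interval -0.17 to 0.0069) had an adjusted p of 0.173 by edgeR.

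SMAD4, the common partner of the receptor-activated SMADs, was at 27.8, 28.9 and 26.8 CPM in the control and 29.97, 29.9985 and 30.4 CPM in the knockdown libraries. Here every knockdown library was higher, and the log2 fold change was 0.11 (95% interval 0.0047 to 0.22), with an unadjusted p of 0.0416 and an adjusted p of 0.119 by edgeR. A transcript on the same strand, RP11-729L2.2, shares 967 bases, 7.4% of the counted length of SMAD4, and was at 6.05 CPM in the control and 6.04 CPM after knockdown. SMAD7, the inhibitor, was at 16.2, 16.6 and 17.3 CPM against 16.4, 15.6 and 15.4 CPM, with overlapping groups and a log2 fold change of -0.08 (95% interval -0.21 to 0.05, adjusted p = 0.402). SMAD2 (chr18:47808957-47931146, minus strand), SMAD4 (chr18:51028394-51085045, plus strand) and SMAD7 (chr18:48919853-48950711, minus strand) share the long arm of the chromosome, and SMAD3 lies on chr15:67063763-67195195, plus strand.

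Per length, SMAD3 made up 78.7 ± 0.472% of the summed level of the 4 SMADs in the control and 79.3 ± 0.274% after knockdown, at 31.2 ± 0.406 and 31.8 ± 0.289 RPKM. SMAD7 followed at 4.52 ± 0.142 and 4.28 ± 0.143 RPKM, then SMAD4 at 2.12 ± 0.0806 and 2.30 ± 0.0184 RPKM and SMAD2 at 1.81 ± 0.0252 and 1.71 ± 0.0214 RPKM. In CPM, SMAD2 was above SMAD4 and SMAD7, and its last place per length comes with a counted exon length of 36366 bases, against 13123 for SMAD4. Its reference transcript alone is 34626 bases long, and with such lengths SMAD2 stayed last of the 4, at 1.90 RPKM in the control beside 3.17 RPKM for SMAD4. As that length is close to the counted one, it cannot tell whether the last place of SMAD2 depends on length. Which transcript forms were present was not measured. The ratio of SMAD2 to SMAD3 was 0.0580 ± 0.00151 in the control and 0.0538 ± 6.9e-04 after knockdown without overlap (exact permutation p = 0.1, 0.2 after adjustment), and that of SMAD7 to SMAD3 was 0.145 ± 0.00629 and 0.135 ± 0.00402 with overlap (exact permutation p = 0.2).

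Ordered per length over all 10 genes, the control libraries gave TGFB2, SMAD3, TGFB1, TGFBR2, TGFBR1, SMAD7, SMAD4, SMAD2, TGFBR3 and TGFB3. TGFBR3 and TGFB3 (0.336 ± 0.0583 and 0.330 ± 0.0342 RPKM) did not differ beyond their spread. With reference transcript lengths, SMAD3 came first at 44.01 ± 0.573 RPKM.

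**Figure D3:**
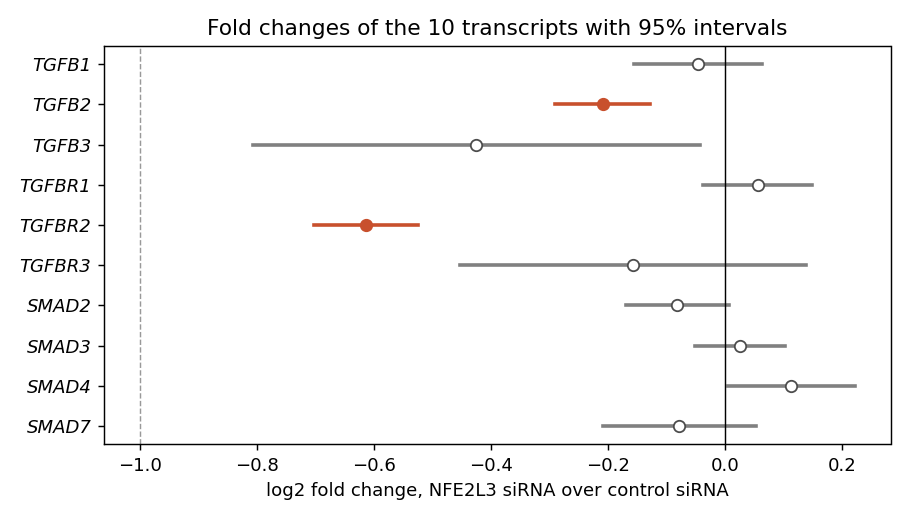
Points are log2 fold changes of the 10 genes (NFE2L3 siRNA over control siRNA, 3 libraries a group) and lines their 95% intervals, with filled symbols for an adjusted p under 0.05 and a dashed line at a halving. TGFBR2 (-0.61) and TGFB2 (-0.21) are filled, and the intervals of TGFB3 and TGFBR3 are the widest.

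The genes whose levels ran most closely with TGFBR2 over the 6 libraries, by Pearson r of log2 CPM among 10646 other genes at a mean of at least 5 CPM, were ACLY (r = 0.9998), the ATP citrate lyase gene of fatty acid synthesis, DYNLT1 (r = 0.9994), a dynein light chain gene, and COQ10B (r = 0.9992), a coenzyme Q binding protein gene. Their log2 fold changes were -0.18, -0.76 and -0.22. In all, 841 genes had an r over 0.95 with TGFBR2. The 6 libraries fall into the groups compared, so this likeness describes these libraries and carries no test.

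The pathway around these genes was described with 115 other genes, of which 94 passed the filter on low counts. The test called 20 of them lower and 10 higher, and 64 missed the threshold. The share called, 31.9%, stood beside 26.7% of all tested genes called in either direction, and their median log2 fold change was -0.02. The count of higher genes was 6 without any one of the knockdown libraries.

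Among 18 genes of ligand latency and activation, 14 were tested, 4 were higher and 1 was lower (median log2 fold change 0.07). The share called was 35.7%, beside 26.7% of all tested genes (12.7% higher and 14.0% lower). MMP14, a membrane-bound matrix metalloproteinase that can release latent TGF-beta, rose from 416.5 ± 4.41 to 514.4 ± 16.3 CPM (log2 fold change 0.30, adjusted p = 1.17e-06). LTBP3 and LTBP4, which tether latent ligand to the matrix, rose by 0.28 (adjusted p = 1.81e-05) and 0.17 (adjusted p = 0.0102) on the log2 scale, the latter call being lost without control replicate 3 (adjusted p = 0.0789) or knockdown replicate 1 (adjusted p = 0.0552). FBN1, the fibrillin to which these proteins bind, was the other higher gene (0.13, adjusted p = 0.0282) and is named after its values were seen. THBS1, a matrix protein that activates latent ligand and is also induced by TGF-beta, fell by 0.28 (adjusted p = 1.43e-05), from 186.9 ± 9.37 to 154.1 ± 1.80 CPM.

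Among 14 other receptors of the superfamily, 12 were tested, 2 were lower and 0 were higher by edgeR (median -0.05). The share called was 16.7%, beside 26.7% of all tested genes. ACVRL1, a type I receptor best known in endothelium, fell by 1.88 (adjusted p = 0.00445) on counts of only 22, 14 and 21 in the control against 5, 6 and 4 in the knockdown libraries. ACVR2A, an activin type II receptor, was at 4.71 ± 0.256 against 3.802 ± 0.279 CPM (log2 fold change -0.31, adjusted p = 0.0406), a call that was lost in 9 of 16 alternatives. BAMBI, a decoy receptor, and ENG, endoglin, had log2 fold changes of -0.23 (adjusted p = 0.105) and 0.26 (adjusted p = 0.168). The type II receptor BMPR2, named after its values were seen as the most abundant of the 14 in CPM (39.8 CPM in the control), had a log2 fold change of -0.04 (95% interval -0.14 to 0.06). Per length, ACVR1 and ACVR1B were above it in the control, at 6.30 and 3.58 RPKM against 3.34 RPKM.

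Among 24 activin, BMP and GDF ligands and antagonists, 13 were tested, 1 was higher and 0 were lower by edgeR (median 0.04). The share called was 7.69%, beside 26.7% of all tested genes. The higher gene was NOG, noggin, a BMP antagonist, at 13.4 ± 0.631 CPM in the control and 15.4 ± 0.222 CPM after knockdown (log2 fold change 0.21, adjusted p = 0.0226), and leaving out any one library other than control replicate 2 ended this call (adjusted p = 0.0515 to 0.0790). INHBA, the activin A subunit and the most abundant of the list, was at 406 ± 33.2 and 440 ± 11.1 CPM (0.12, adjusted p = 0.0698). INHBB, the activin B subunit, and BMP2 had log2 fold changes of 0.17 (adjusted p = 0.0747) and -0.19 (adjusted p = 0.0844).

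Of the 4 remaining SMADs, which serve the BMP branch, 2 were lower, beside 14.0% of all tested genes. SMAD6, the BMP-branch inhibitor, fell by 0.42 (5.58 ± 0.263 to 4.16 ± 0.539 CPM, adjusted p = 0.00524), and without knockdown replicate 2 the adjusted p was 0.0536. SMAD1, a receptor-activated SMAD of that branch, was at 6.35 ± 0.746 against 5.20 ± 0.0923 CPM (-0.28, adjusted p = 0.0408), a call lost in 9 of 16 alternatives. SMAD5 had a log2 fold change of 0.01 (adjusted p = 0.886), and SMAD9, the rarest of the 4 at 0.724 CPM in the control, one of 0.46 (95% interval -0.04 to 0.97, adjusted p = 0.176). Of 8 genes known as induced by BMPs, 6 were tested, and SMAD6 was the one that passed. The share called was 16.7%, beside 26.7% of all tested genes. HEY1, a transcriptional repressor, and ID3, an inhibitor of basic helix-loop-helix factors, had log2 fold changes of 0.12 (adjusted p = 0.451) and -0.37 (adjusted p = 0.501).

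The list of SMAD and receptor regulators had the largest share of called genes among the lists of pathway genes with over 10 tested, with 9 lower and 4 higher of 23, or 56.5%, and a median log2 fold change of -0.10. The shares of all tested genes were 14.0% lower, 12.7% higher and 26.7% in either direction. CREBBP, the histone acetyltransferase CBP that SMAD complexes recruit, was at 164.4, 153.8 and 167.7 CPM in the control and 102.9, 96.3 and 102.6 CPM in the knockdown libraries. No knockdown library reached the lowest control library, and CREBBP fell by 0.69 (SE 0.0436, adjusted p = 1.90e-11), to 62.1% of the control. FKBP1A, which binds and restrains the type I receptor, fell by 0.37 (61.5 ± 4.01 to 47.7 ± 2.06 CPM, adjusted p = 5.07e-06), and ZFYVE9, also called SARA, which brings SMAD2 and SMAD3 to the receptor, fell by 0.37 (adjusted p = 3.00e-05). SKI, a corepressor of SMAD complexes, rose from 34.7 ± 1.98 to 44.5 ± 1.26 CPM (log2 fold change 0.36, adjusted p = 7.84e-06). Also called, and named after their values were seen, were the ubiquitin ligase genes NEDD4L (-0.19) and SMURF2 (-0.21) and the corepressor gene TGIF1 (-0.18), all lower, and STRAP (0.14), an adaptor that keeps SMAD7 at the receptor, which was higher. The other lower genes, named in the same way, were TRIM33 (-0.29), PPM1A (-0.12) and EP300 (-0.11). The other higher genes were USP9X (0.11) and USP11 (0.14), both of them deubiquitinase genes.

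**Figure D4:**
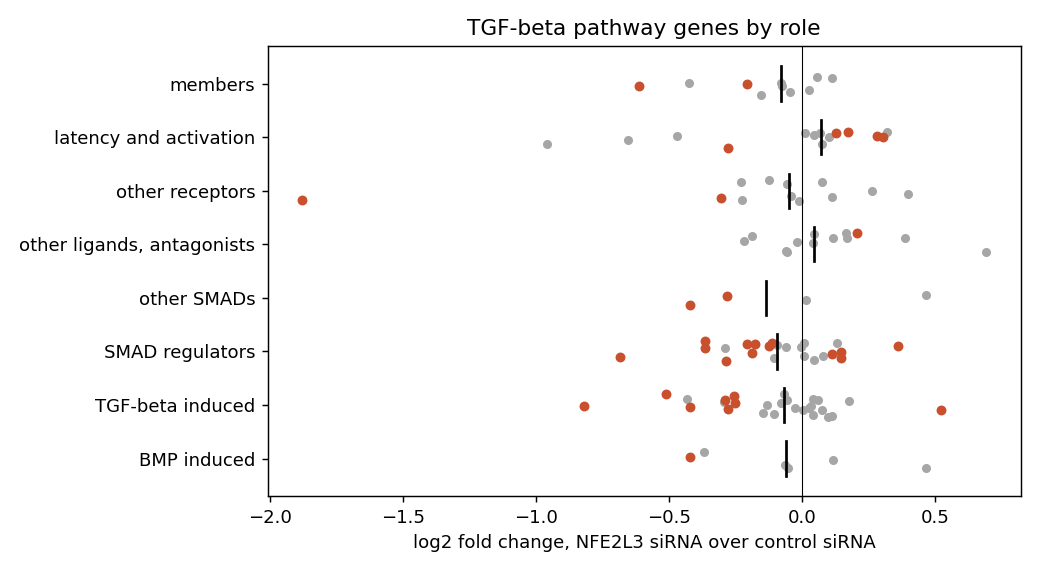
Each point is 1 tested gene with its log2 fold change (NFE2L3 siRNA over control siRNA), sorted by role, with the 10 genes described here in the top row, coloured points at an adjusted p under 0.05 and black bars at list medians. TGFBR2 is the leftmost point of the top row, and ACVRL1 lies far left among other receptors at few counts.

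Of 29 genes known from other systems as induced by TGF-beta, not counting SMAD7, 27 were tested, 7 were lower and 1 was higher. The share called was 29.6%, beside 26.7% of all tested genes, and the median log2 fold change was -0.07. SNAI2, a transcription factor of epithelial-mesenchymal transition, fell by 0.51 (142.6 ± 6.95 to 100.04 ± 1.37 CPM, adjusted p = 2.02e-09), and JUNB, an AP-1 subunit, by 0.42 (adjusted p = 2.57e-06). THBS1, given above, was also among the lower genes. In SNAI2 the control libraries were at 134.7, 147.6 and 145.5 CPM and the knockdown libraries at 101.6, 99.4 and 99.1 CPM, with no overlap.

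The gene of the list that rose, TAGLN, a smooth muscle actin-binding protein gene named after its values were seen, went from 3.72 ± 0.482 to 5.32 ± 0.301 CPM (0.52, adjusted p = 0.00118). The 4 most abundant induced genes that did not pass the test, also chosen after their values were seen, were FN1, TPM1, COL4A1 and TGFBI. FN1, fibronectin, was at 19857 ± 362 CPM and 19899 ± 310 CPM, with a log2 fold change of 0.0030 (95% interval -0.07 to 0.07). The intervals of TPM1 (-0.15 to 0.01), COL4A1 (-0.02 to 0.14) and TGFBI (-0.14 to 0.03) also held 0. SMAD7, itself an induced gene, is described above at -0.08.

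**Figure D5:**
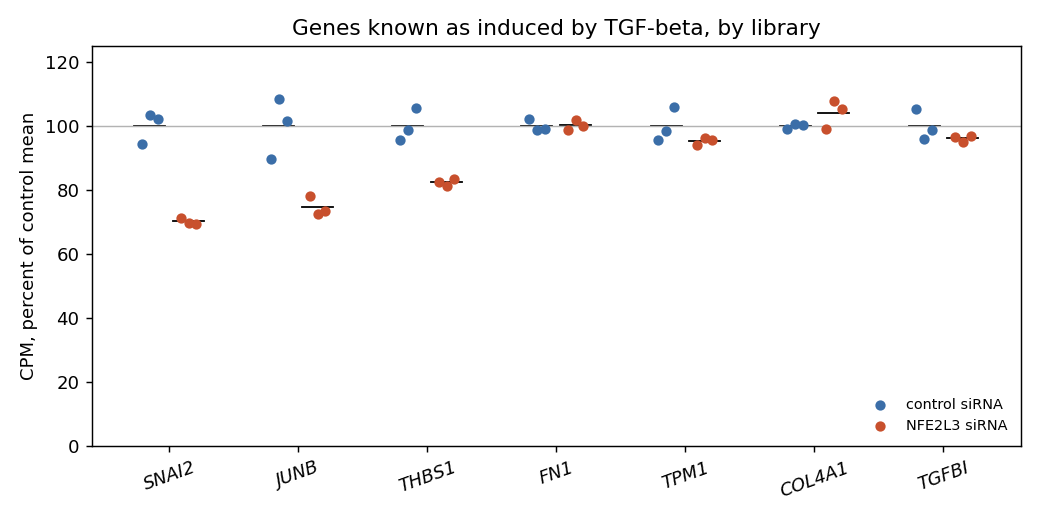
CPM of 7 genes known as induced by TGF-beta, 1 point per library as a percent of the control mean, on an axis that starts at 0, with short bars at group means. SNAI2 (70.1% of control), JUNB (74.7%) and THBS1 (82.4%) sit below 100 after NFE2L3 siRNA, and the knockdown points of FN1, TPM1, COL4A1 and TGFBI overlap the control points.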

How the data were processed

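The authors made stranded mRNA libraries with molecular identifiers from 786-O cells and sequenced them (DNBSEQ-T7 per the labels, an Illumina instrument per the methods). Per the methods and the submitters' processing notes, reads were trimmed with Trimmomatic 0.36, collapsed by identifier, mapped with STAR 2.5.3a to the Ensembl 87 genome and counted with featureCounts (Subread 1.5.1), and tested with edgeR 3.12.1. The authors deposited raw counts per gene and library with exon coordinates on GRCh38. Which strand setting was used, and how reads over several genes were handled: not given in the sources used here. TGFB2-OT1, which lies wholly in TGFB2 exons, had 1404 to 1928 counts a library, so reads over both genes were not all set aside. Even numbers made up 67.6% to 69.9% of low counts, as when both mates are counted, so halved counts were an alternative.

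CPM, RPKM and test results were obtained from these counts in R 4.3.3 with edgeR 4.0.16 (filterByExpr with a minimum count of 10, TMM, quasi-likelihood test, no replicate block, Benjamini-Hochberg adjustment, threshold 0.05), which was checked on simulated data. Standard errors were derived from each fold change and its F value. DESeq2 1.42.0 and limma 3.58.1 (voom), other scalings, filters and left-out libraries were alternatives. The common biological coefficient of variation was 4.76%. Ratios were tested by exact two-sided permutation. The genes and lists were chosen with earlier results of these data known, so they are not independent evidence. Named were NFE2L3, the 10 genes, up to 4 genes per list with the smallest adjusted p, and the 3 genes most like the one of the 10 with the smallest adjusted p. All 10 genes matched RefSeq promoters of GRCh38.p14. No siRNA or protein sequence was used here. A gene of the TGF-beta induced list is counted but not reported here by name.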

Additional observations from a re-analysis of the deposited data

How the results depend on the processing

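TGFBR2 (-0.64 to -0.58) and TGFB2 (-0.23 to -0.19) kept their direction and an adjusted p under 0.05 in 16 of 16 alternatives (other scalings, filters and tests, halved counts, the replicate block and each library left out), and the other 8 genes passed in 0 of 16. Under an unadjusted p under 0.05 with a 2-fold change, 0 of the 10 were lower. With libraries left out, TGFB1 ranged from -0.081 to 0.0207, its sign changing without control replicate 2 (4.5e-04) and without knockdown replicate 2 (0.0207), and SMAD5 from -0.035 (without knockdown replicate 2) to 0.043, also below 0 without control replicate 3 (-0.0083). Other pathway genes called higher numbered 6 to 11 with a library left out, against 10, and those called lower 16 to 24, against 20. The cause was not tested. Replicate numbers did not pair the libraries (correlations of deviations between same-numbered libraries -0.06, -0.16 and -0.07, and 0 of 3 control libraries correlated best with their own number). With the replicate block 2 of the 10 genes were lower (TGFBR2 -0.61, TGFB2 -0.21), and over all genes 2504 were lower and 2278 higher, against 2783 and 2537. TGFB3 and TGFBR3, at 61 to 202 counts a library, had the widest intervals of the 10, and their adjusted p was 0.0969 and 0.467 with halved counts, against 0.0947 and 0.464. ACVRL1 had no value with a minimum of 10 counts in every library, with halved counts or by DESeq2.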
